A study of Rattus norvegicus with 7 samples.

Results

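The genes described here are 10 genes of protein folding in the endoplasmic reticulum (ER) and of the unfolded protein response (UPR): Hspa5, Hsp90b1, Pdia3, Pdia4, Pdia6, Calr, Canx, Xbp1, Dnajb9 and Herpud1. They were taken from the arrays by name, all probes of each gene included, which gave 10 of the 36174 gene names on the array and 11 of its 45598 probes. RNA came from NR8383, an established rat cell line of alveolar macrophages, which take up particles from the surface of the airways. The control group was 4 replicates of cells kept for 4 h without nanoparticles (0 µg/mL), and the ZnO group was 3 replicates of cells kept for 4 h with zinc oxide nanoparticles at 2 µg/mL by the labels. The paper gives a different ZnO dose, so the arrays were grouped only as unexposed and exposed. The paper states that exposure took place without fetal bovine serum and does not state the medium of the controls separately. Both groups are 1 cell line in culture. Each replicate was hybridized to 1 one-color Agilent rat array. All 7 arrays lay on 1 slide, with the controls and the ZnO arrays in separate rows, and row and exposure cannot be told apart.

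Secretory and membrane proteins are folded in the ER by chaperones, by lectins that hold glycoproteins until they are folded, and by enzymes that form and reshuffle disulfide bonds. When unfolded proteins accumulate, the sensors IRE1, PERK and ATF6 start the UPR, in which ATF6 and spliced XBP1 switch on chaperone genes through the ER stress response element (ERSE) and related elements of their promoters, and proteins that stay unfolded are exported to the cytosol and degraded. In macrophages the same machinery serves the output of cytokines, receptors and lysosomal enzymes.

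The promoter sequences are shown because ERSE is an element through which ER chaperone genes are known to respond together. RefSeq promoter windows (250 bases before the gene start to 50 after it, assembly GRCr8) were at hand for 8 of the 10 genes, that is for all but Pdia3 and Pdia6. ERSE was searched as CCAAT and CCACG spaced by 9 bases, and ERSE-II as ATTGG and CCACG spaced by 1 base, both on both strands. In the following stretches the capitals mark the letters of the element, and a match on the opposite strand therefore reads CGTGG and then ATTGG.
Hspa5, chr3:38452961-38453003, plus strand: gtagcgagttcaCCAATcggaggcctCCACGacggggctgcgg
Xbp1, chr14:84604546-84604588, plus strand: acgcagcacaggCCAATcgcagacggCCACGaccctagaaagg
Canx, chr10:35158057-35158099, minus strand: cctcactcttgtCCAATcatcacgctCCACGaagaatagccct
Hsp90b1, distal match, chr7:23012439-23012481, minus strand: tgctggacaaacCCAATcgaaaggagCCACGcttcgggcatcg
Hsp90b1, proximal match, chr7:23012335-23012377, minus strand: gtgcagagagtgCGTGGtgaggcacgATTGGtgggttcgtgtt
Calr, chr19:40213123-40213165, plus strand: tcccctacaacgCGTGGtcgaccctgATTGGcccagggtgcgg
Herpud1, the ERSE-II match, chr19:10614809-10614843, minus strand: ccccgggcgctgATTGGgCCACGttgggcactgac

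Of the 8 promoters, 5 held an ERSE match, against 0.0657% of all 33469 windows of the same length (22 windows). ERSE is known from ER chaperone genes, so this contrast is not a finding independent of that knowledge. Hsp90b1 held 2 ERSE matches, and its proximal one lies in the opposite orientation. The single ERSE-II match was that of Herpud1, and 0.0508% of all windows hold one. Pdia4 and Dnajb9 held neither element in these exact letters in this window, although each held CCAAT and CCACG, as did all 8. Those short half-sites are common, with 37.5% and 31.6% of all windows holding one, and they are part of the ERSE matches. The UPR element core TGACGTG was found in Hspa5 only among the 8, and in 1.81% of all windows. The core of the metal response element, to which the zinc sensor MTF1 binds, was searched as TGCGCNC and TGCACNC. The form with G was found in Hsp90b1, Pdia4 and Dnajb9 and the form with A in Hsp90b1, against 14.1% and 12.2% of all windows. A match describes letters and says nothing of binding.

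**Figure D1:**
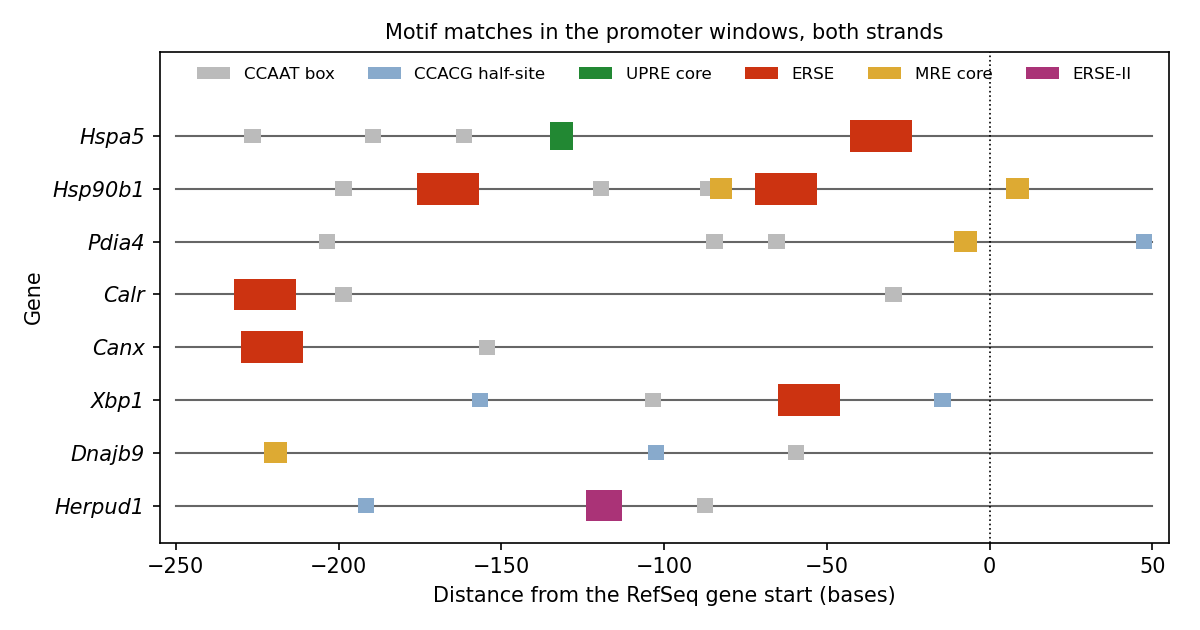
Motif matches in the promoter windows of 8 genes, with the distance from the RefSeq gene start in bases on the x axis and 1 line for each gene; the dotted line marks the start and the boxes the matches on either strand. The ERSE matches of Hspa5 and Xbp1 lie close to the start, from positions -43 and -65 on, and those of Calr and Canx farther upstream, from positions -232 and -230 on.

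The arrays measured each gene mainly through a single probe. The 11 probes took 30 spots on each array. Hspa5 and Pdia6 were printed 10 times each, Hsp90b1 2 times and the other probes once. The probes of the genes with the widest spread between arrays and with the largest differences between groups read as follows, at the positions that the files give on rn4.
Hsp90b1, chr7:23334474-23334623, minus strand: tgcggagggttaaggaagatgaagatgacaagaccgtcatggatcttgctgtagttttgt
Pdia3, chr3:108236022-108236081, plus strand: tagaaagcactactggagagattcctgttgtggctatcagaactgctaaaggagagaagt
Pdia6, chr6_random:623744-625399, plus strand: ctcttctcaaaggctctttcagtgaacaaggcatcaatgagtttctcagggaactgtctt

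The 60 bases of the Hsp90b1 probe span 150 bases of the genome and those of the Pdia6 probe span 1656, so both cross an intron in the files' coordinates; the Pdia3 probe spans 60 and lies in 1 block. All 10 genes were detected, each with 1 probe well above background on all 7 arrays. Canx had a second probe, well above background on 2 of 7 arrays, which was not tested. The probe of Xbp1 lies toward the end of the transcript and gives total Xbp1 RNA, so the splicing of Xbp1 by IRE1 was not measured.

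None of the 10 genes was called higher or lower after ZnO at an adjusted p under 0.05 (limma, Benjamini-Hochberg over 20043 probes; lowest adjusted p = 0.83, for Pdia3). Over the whole array 10 probes were called, all of them higher, which is 0.0499% of the probes tested. At an unadjusted p under 0.05, 1 of the 10 genes was lower (Pdia3) and 0 were higher, where 2.86% of all probes were lower and 3.06% higher. The differences ran from -0.16 to 0.02 on the log2 scale, on which 1 is a 2-fold difference. They were below 0 for 8 of the 10 genes, where 52.1% of all probes were below 0. Their median was -0.06, where that of all probes was -0.0064. The 95% intervals of all 10 genes lay inside a 1.5-fold difference in either direction, with the widest that of Hsp90b1, from 0.72-fold to 1.34-fold.

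The exposure itself was visible on the same arrays. The metallothionein gene Mt1a, which encodes a zinc-binding protein, lay between 2.39 and 2.74 in the controls and between 5.84 and 6.09 after ZnO, in log2 units relative to the array's 75th percentile. Its difference was 3.40 ± 0.11 (SE; limma adjusted p = 3.67e-05). Mt2A was higher by 5.83 ± 0.13 (SE; limma adjusted p = 3.79e-06) and the zinc exporter gene Slc30a1 by 1.37 ± 0.09 (SE; limma adjusted p = 0.00276). Of 18 macrophage marker genes, 16 passed the filter and were tested, and Adgre1 and Marco were not well above background. Of all 45598 probes, 20043 were tested. Of markers of other cells, 0 of 9 epithelial, 1 of 7 lymphocyte, 2 of 6 fibroblast, 3 of 6 endothelial and 2 of 7 neutrophil genes were tested, and none of them was called. Control means of the tested macrophage markers ran from -4.18 (Mertk) to 6.71 (Ctsd), and that of the endothelial marker Vwf was 1.23. These 3 genes are named after their values were seen.

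**Figure D2:**
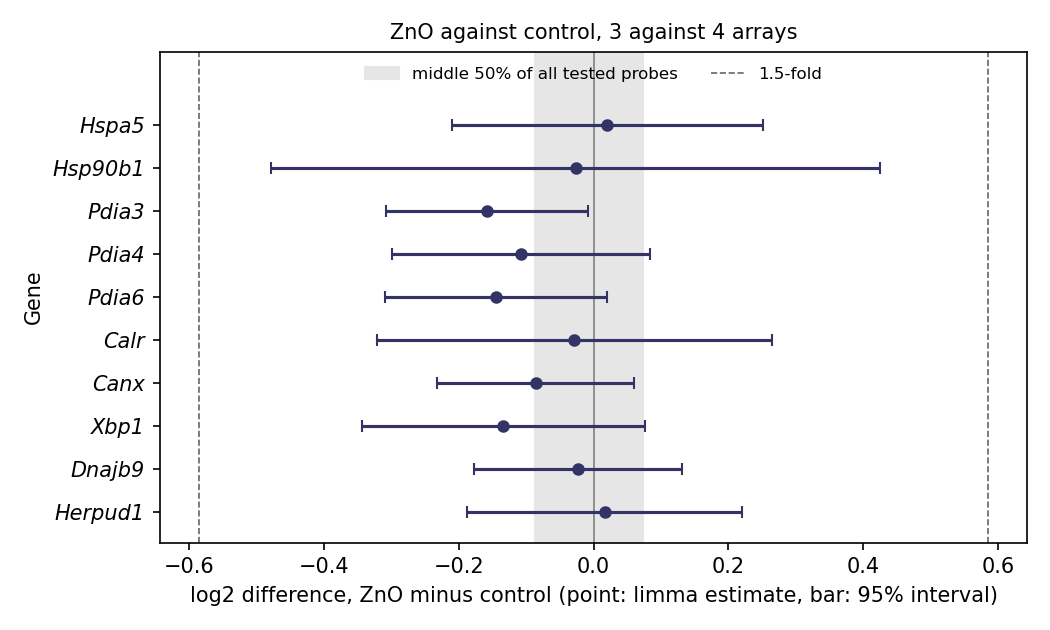
Difference between ZnO and control arrays (log2 scale, x axis) for each of the 10 genes, with points for the limma estimate and bars for its 95% interval; the grey band holds the middle 50% of all tested probes and the dashed lines mark a 1.5-fold difference. All bars lie between the dashed lines, and only that of Pdia3 does not cross 0.

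Hspa5 encodes BiP, the Hsp70 of the ER and the chaperone that keeps the UPR sensors inactive. Its normalized log2 intensity was 3.04, 3.13, 2.91 and 3.14 in control replicates 1 to 4 and 2.91, 3.11 and 3.22 in ZnO replicates 1 to 3. The ZnO arrays thus held both the lowest and the highest value, and the groups overlapped over the whole range of the controls. The difference was 0.02 ± 0.10 (SE; limma adjusted p = 0.999), which is 1.01-fold with a 95% interval from 0.86 to 1.19. The 10 spots of Hspa5 on one array had an SD between 0.03 and 0.04, where the SD between arrays of a group was 0.13, so the spread between arrays was wider than the spread between spots.

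Hsp90b1 encodes GRP94, the Hsp90 of the ER, which folds Toll-like receptors and integrins among others. Its values were 1.70, 1.69, 1.08 and 1.40 in the controls and 1.104, 1.51 and 1.70 after ZnO. Control replicate 3 and ZnO replicate 1 were low and close to each other, and the highest value was 1.70 in both groups. The groups overlapped almost fully, and the difference was -0.03 ± 0.19 (SE; limma adjusted p = 0.999). Of the 10 genes it had the widest spread between arrays of a group, with an SD of 0.30, wider than that of 85.8% of all probes. The SD over its 2 spots on one array lay between 0.04 and 0.20.

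Calr and Canx encode calreticulin and calnexin, the soluble and the membrane-bound lectin that hold glycoproteins during folding. Calr was 2.97, 3.04, 2.69 and 2.89 in the controls and 2.65, 2.89 and 3.07 after ZnO. Its groups overlapped, with the same arrays low as for Hsp90b1, and differed by -0.03 ± 0.13 (SE; limma adjusted p = 0.999). Canx was 2.72, 2.74, 2.66 and 2.68 in the controls and 2.56, 2.63 and 2.64 after ZnO. All 3 ZnO arrays lay below all 4 controls by a narrow margin, and the difference of -0.09 ± 0.06 was not called (SE; limma adjusted p = 0.945). With an SD of 0.04 between arrays of a group, Canx was among the least variable of all probes, at percentile 1.33.

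The protein disulfide isomerases catalyse the formation and exchange of disulfide bonds; Pdia3 (ERp57) acts with calnexin and calreticulin on glycoproteins. Pdia3 was 1.31, 1.28, 1.39 and 1.37 in the controls and 1.20, 1.15 and 1.19 after ZnO. All ZnO arrays lay below all controls. The difference was -0.16 ± 0.06 (SE), a 0.90-fold level with a 95% interval from 0.81 to 0.99, and did not pass the adjustment. Pdia6, which acts on disulfide bonds of ER proteins and of the sensor IRE1, was 3.03, 2.95, 3.11 and 3.02 in the controls and 2.94, 2.89 and 2.81 after ZnO. These groups did not overlap either, although ZnO replicate 1 and control replicate 2 were apart by less than the SD of either group. The difference was -0.14 ± 0.07 (SE; limma adjusted p = 0.868). Its 10 single spots on one array had an SD between 0.03 and 0.06. The SD of 0.06 between arrays of a group is that of values averaged over those spots. These SDs are not directly comparable, since an average over 10 spots varies less than a single spot. Pdia4 (ERp72) lay between -0.997 and -0.828 in the controls and between -1.13 and -0.90 after ZnO. Its groups overlapped, and the difference was -0.11 ± 0.08 (SE; limma adjusted p = 0.949), -0.050 without ZnO replicate 2 and -0.168 without ZnO replicate 3.

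In all, 3 of the 10 genes (Pdia3, Pdia6 and Canx) had their ZnO arrays below all control arrays and 0 had them above, where 3.59% of all probes lay all below and 3.8% all above. That count changed with the scaling and with 1 array. It was 1 of 10 with centring on the array median, where 4.81% of all probes lay all below, 1 of 10 with the deposited table, where 2.49% did, and 0 of 10 with centring on the spike-in probes, a setting under which 0.0349% of all probes lay all below. Without ZnO replicate 3 it was 5 of 10, where 6.71% of all probes lay all below. The 3 genes were not called in any of these settings.

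Xbp1 encodes the transcription factor that IRE1 activates, and its own RNA is a known target of the UPR. It was 1.38, 1.32, 1.45 and 1.34 in the controls and 1.06, 1.30 and 1.36 after ZnO. ZnO replicate 1 was the lowest, ZnO replicate 2 lay just below the lowest control and ZnO replicate 3 within the range of the controls. The difference was -0.13 ± 0.09 (SE; limma adjusted p = 0.932), and -0.043 without ZnO replicate 1. Dnajb9 encodes ERdj4, an Hsp40 partner of BiP, and lay between -2.57 and -2.46 in the controls and between -2.55 and -2.48 after ZnO. The ZnO values fell inside the range of the controls, with a difference of -0.02 ± 0.07 (SE; limma adjusted p = 0.999). Herpud1 encodes a membrane protein of the complex that exports unfolded proteins for degradation. It was 1.60, 1.48, 1.72 and 1.66 in the controls and 1.76, 1.58 and 1.55 after ZnO, with overlapping groups and a difference of 0.02 ± 0.09 (SE; limma adjusted p = 0.999).

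**Figure D3:**
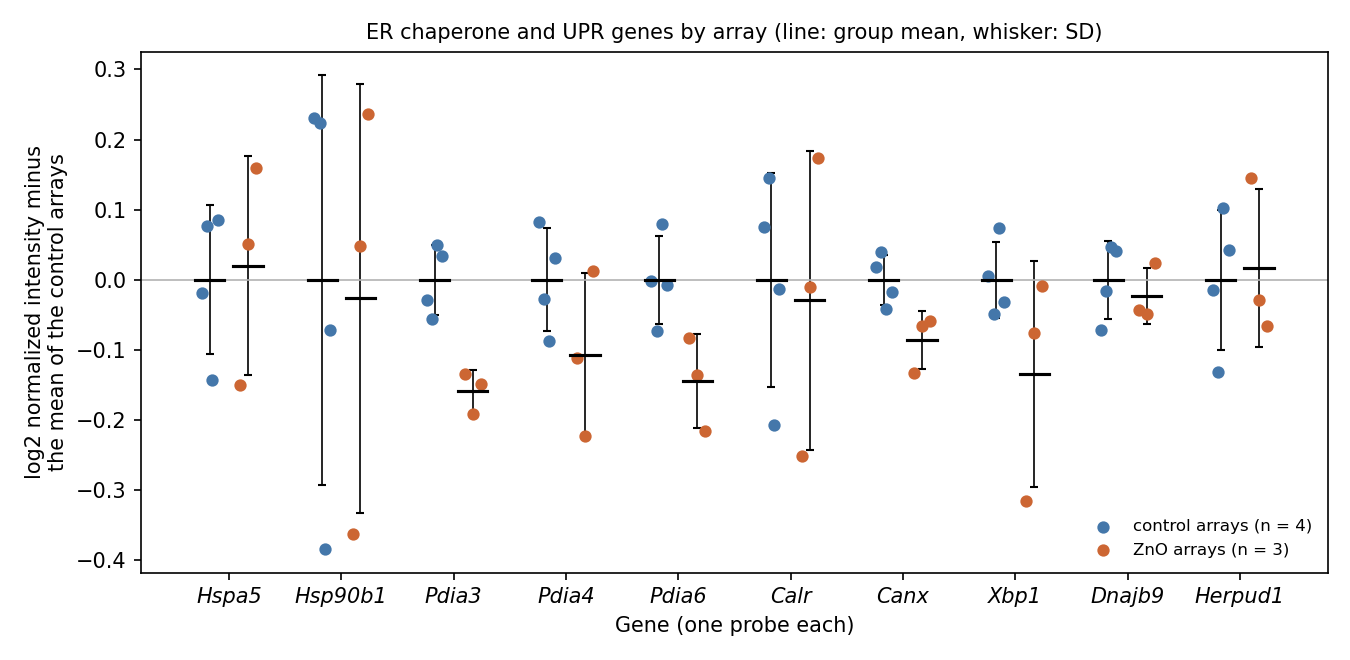
Normalized log2 intensity of each gene on every array, minus the mean of its control arrays (y axis), with blue points for the 4 control and orange points for the 3 ZnO arrays, lines for the group means and whiskers for the SD. The orange points of Pdia3, Pdia6 and Canx lie below the blue ones, and those of Hsp90b1, Calr and Hspa5 spread as widely as the blue ones.

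For Hspa5, Hsp90b1, Calr, Dnajb9 and Herpud1 the SD between arrays of a group was larger than the difference between the groups, and the genes varied in 2 opposite directions. With each group's mean removed, Hspa5, Hsp90b1, Calr and Canx went up and down together over the 7 arrays, with Pearson r between 0.79 and 0.97. They were low in control replicate 3 and ZnO replicate 1, where Hsp90b1 lay 0.38 and 0.34 below its group mean (deviations -0.38 and -0.34), and high in ZnO replicate 3. Pdia6 and Herpud1 ran the other way, with r between -0.98 and -0.82 against those 4 genes and 0.91 between themselves. Pdia3 leaned the same way as Pdia6 (r = 0.60) and Herpud1 (r = 0.80), while Pdia4, Xbp1 and Dnajb9 followed neither set closely. Of the 45 pairs, 6 had r of at least 0.8 and 9 had r of -0.8 or lower, and the median was 0.04.

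This pattern was shared by a large part of the array. The first component of the variation within groups held 36.5% of it, over all probes, and Canx, Hsp90b1 and Calr correlated with it at 0.98, 0.98 and 0.97 and Herpud1 at -0.96. For Hspa5, 9.35% of all probes reached r of at least 0.8 and 9.40% reached -0.8 or lower. The 3 named genes most like Hspa5 were Cstf3 (r = 0.998), Sypl1 (r = 0.997) and Emc1 (r = 0.996). These correlations describe 7 arrays that share a slide and a normalization, and the part of depth or RNA quality in the pattern was not tested. The 75th percentile of intensity was 1317, 1489, 1179 and 958 in control replicates 1 to 4. It was 980, 1304 and 1603 in ZnO replicates 1 to 3. The first component stood at 0.20, 0.38, -0.55 and -0.03 on the same controls and at -0.58, 0.22 and 0.36 on the same ZnO arrays. Feature Extraction's own quality summary marked 4 of the 7 arrays for evaluation, control replicates 3 and 4 and ZnO replicates 2 and 3.

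**Figure D4:**
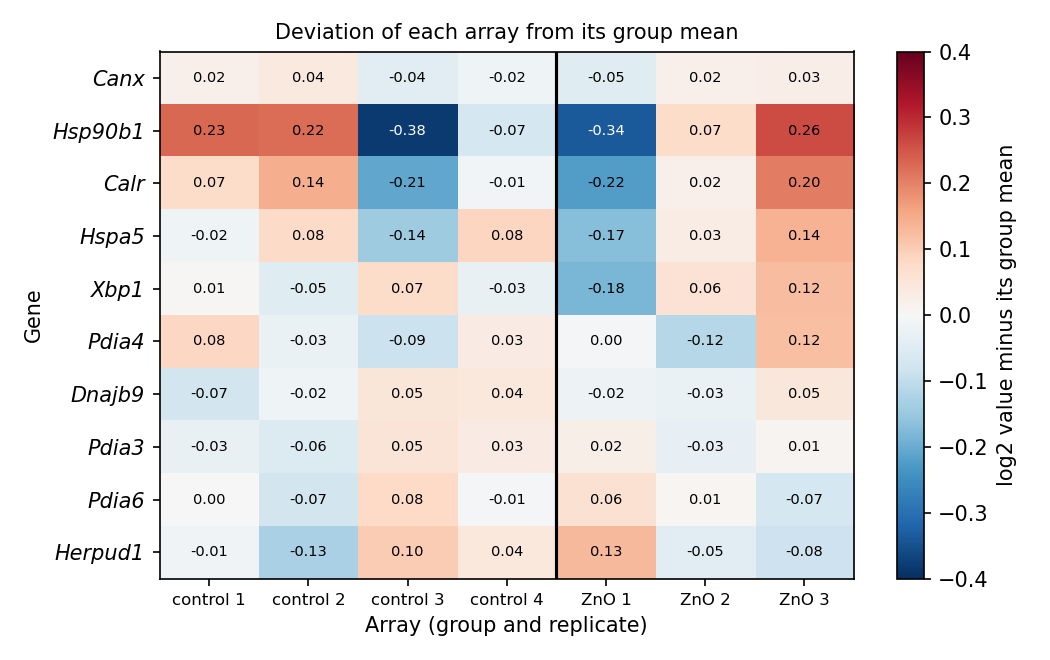
Deviation of each array from the mean of its group (log2, colour and printed value) for the 10 genes, in rows ordered by their correlation with the first component of all probes, with the arrays in columns and a line between control and ZnO arrays. Hsp90b1, Calr and Hspa5 are low in control replicate 3 and ZnO replicate 1, where Herpud1 and Pdia6 are high.

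The rest of the pathway was followed through 8 lists with 100 genes on the array, of which 91 were tested, each by its brightest tested probe. None of the 91 was called in either direction; without the adjustment, 2 were higher and 1 was lower at p under 0.05, where 3.06% and 2.86% of all probes were. The differences ran from -0.27 to 0.32 with a median of -0.01, and 57 of the 91 lay below 0, where 52.1% of all probes did. All ZnO arrays lay below all controls for 2 of the 91 genes and above them for 5, where 3.59% and 3.8% of all probes did so.

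Of the sensors and the proteases that activate ATF6, 5 of 6 genes were tested, with differences from -0.12 to 0.07. Of 8 tested targets of PERK and ATF4, 3 lay above 0 and 5 below, from -0.27 to 0.32. None of these had an unadjusted p under 0.05 by its brightest probe, and they are named after their values were seen. Above 0 lay the transcription factor genes Atf3 (0.32 ± 0.15, SE), Ddit3, which encodes CHOP (0.19 ± 0.09), and Atf4 (0.12 ± 0.08). Below 0 lay Sesn2 (-0.27 ± 0.20, SE), Trib3 (-0.18 ± 0.13), Chac1 (-0.17 ± 0.14), Asns (-0.09 ± 0.10) and Ppp1r15a (-0.01 ± 0.08). The groups of all 8 overlapped, and the limma adjusted p lay between 0.866 and 0.999. The 11 other Hsp70 and Hsp40 proteins and nucleotide exchange factors of the ER, partners of BiP, lay between -0.13 and 0.18, and the 15 other disulfide isomerases and oxidases between -0.16 and 0.24. By the brightest probes, Tmx4, a membrane-bound member of the family, was the only one of these with an unadjusted p under 0.05. Its difference was 0.24 ± 0.08 SE (limma adjusted p = 0.742).

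Of the 7 tested genes of the glycoprotein cycle, 6 lay below 0. Uggt1, which puts glucose back on unfolded glycoproteins so that they bind calnexin and calreticulin again, was 1.72, 1.66, 1.74 and 1.69 in the controls and 1.61, 1.40 and 1.51 after ZnO. Its groups did not overlap, and its difference of -0.19 ± 0.07 was not called (SE; limma adjusted p = 0.818). The 23 genes of ER-associated degradation, the pathway of Herpud1, split into 12 above and 11 below 0. Edem3, which trims mannose from glycoproteins bound for degradation, was at 0.28 ± 0.11 (SE; limma adjusted p = 0.823). The 5 tested peptidyl-prolyl isomerases lay between -0.22 and 0.12, and the 17 genes of KDEL receptors, translocon and ER exit, which return or move ER proteins, between -0.13 and 0.10.

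**Figure D5:**
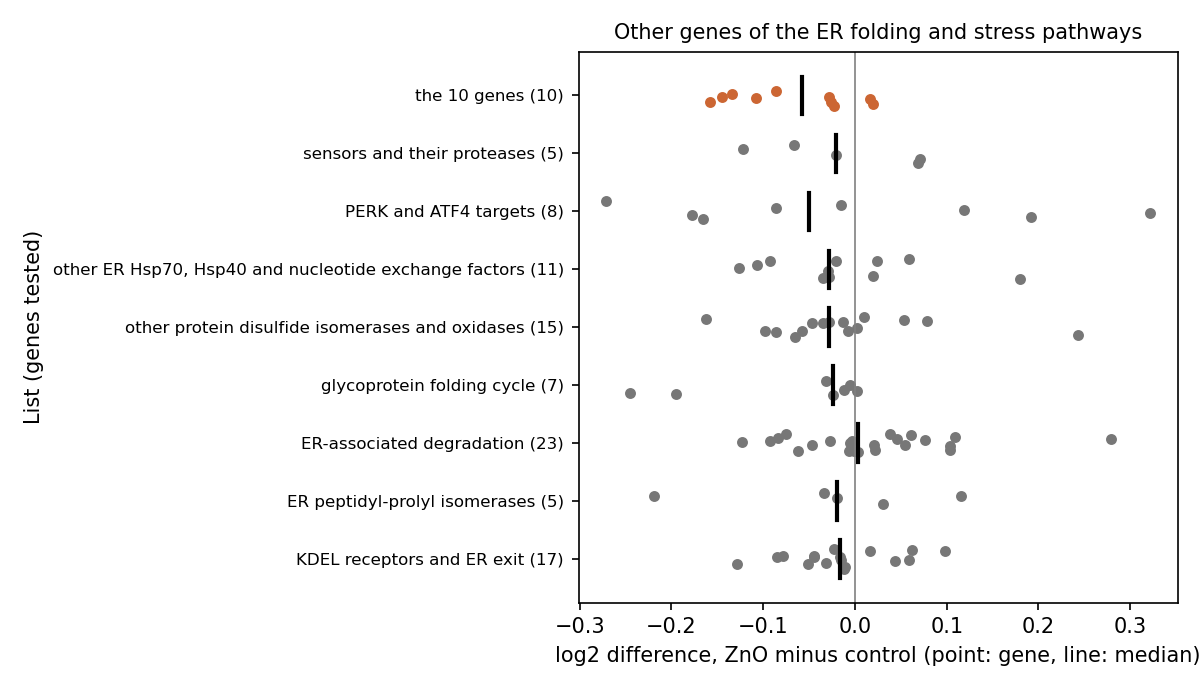
Difference between ZnO and control arrays (log2 scale, x axis) for the 10 genes (orange) and for 8 further lists of ER folding and stress genes (grey), with 1 point for each gene and a line for the median of the list. All medians lie between -0.06 and 0.0037.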

How the data were processed

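RNA of NR8383 cells was measured on one-color Agilent arrays, 4 control and 3 ZnO. The authors extracted them with Agilent Feature Extraction 11.0.1.1, per the labels, and then used percentile normalization in GeneSpring. The deposited files of single arrays hold intensity, background-subtracted and not normalized between arrays. The deposited table holds the scanner's median intensity (100% of values equal) and was used as an alternative. Here, each log2 intensity was set against its array's 75th percentile (58717 non-control spots), outlier spots were left out and the spots of a probe averaged. A probe was tested (20043 of 45598) when, in at least 1 group, most of its spots on every array were well above background and no array lacked a value. That most, and not an equal number, of the spots must pass was settled after it was seen to give the number of probes of an earlier analysis of these data; accepting equal numbers (20056 probes) is given as an alternative. The groups were compared with limma 3.58.1 (lmFit, eBayes; R 4.3.3), and p-values of all tested probes were adjusted together (Benjamini-Hochberg, threshold 0.05). The fit was also run on simulated data with 200 changed probes, and no result here rests on that run. The number of arrays limits the precision.

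Named are the 10 genes by their brightest tested probe, up to 2 genes a list and direction with the lowest unadjusted p under 0.05, Mt1a, Mt2A and Slc30a1, and the 3 genes most like Hspa5; genes outside this rule are said to be named after their values were seen, apart from macrophage markers below background. The genes and lists were chosen with earlier results of these data known. List genes were matched by the files' name or by the current symbol of their transcript (21109 probes matched by accession). Correlations are Pearson's r over 7 arrays with group means removed. The methods describe the replicates as biological. No pair of arrays shared intensities (0% of spots, 21 pairs). Promoter windows are those of RefSeq, GRCr8. The alternatives are other scalings, background corrections, filters, variance models, weights and thresholds, the replicate number as a block, and each array left out.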

Additional observations from a re-analysis of the deposited data

How the results depend on the processing

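None of the 10 genes and no gene of the 8 wider lists was called in any of the 23 settings of the fit. Pdia3, Pdia4, Pdia6, Canx and Xbp1 stayed below 0 in all 21 alternatives that gave a difference, with Pdia3 between -0.20 and -0.089, Pdia4 between -0.17 and -0.038, Pdia6 between -0.18 and -0.075, Canx between -0.12 and -0.017 and Xbp1 between -0.20 and -0.043. The values nearest 0 were those with spike-in centring, except for Xbp1, where it was that without ZnO replicate 1. Values near 0 changed sign. Herpud1 was at -0.0040 under quantile normalization, -0.021 under median centring, -0.012 after normexp with the 75th percentile, -0.036 after normexp with quantile normalization and -0.014 in the deposited table. Hspa5 was at -0.017 under median centring. Centring on spike-in probes put Hsp90b1 at 0.043, Calr at 0.041, Dnajb9 at 0.046 and the median of the 10 genes at 0.012. Leaving out single arrays gave Hsp90b1 values from -0.16 to 0.14, Calr from -0.13 to 0.082, Hspa5 from -0.049 to 0.10, Herpud1 from -0.048 to 0.058 and a median of the 10 genes from -0.12 (without ZnO replicate 3) to -0.045. Why the values changed with single arrays left out or in the other settings was not tested. Array-wide, the 10 probes called higher became 5 with spike-in centring, 5 with no filter on dim probes and 4 at the study's thresholds. The paper, which gives a different dose, reports many more genes for ZnO at those thresholds. The 0 called lower (limma; 573 at an unadjusted p under 0.05) became 1 under quantile normalization, median centring and normexp with quantile normalization, and 4 with a trended, robust variance or with array weights; it lay between 0 and 1 with single arrays left out. The count of genes whose ZnO arrays lay below all controls (3) became 2 in both normexp settings (2.33% and 4.01% of all probes), 1 under median centring (4.81%), 1 in the deposited table (2.49%) and 0 with spike-in centring (0.0349%), against 3.59% of all probes in the reported fit. It lay between 3 and 5 with single arrays left out, where the share of all probes rose to 12.3% without ZnO replicate 1 and to between 5.35% and 6.71% without one of the others. The median r over pairs of the 10 genes, 0.035, was -0.37 in the 4 control arrays alone and -0.020 under quantile normalization, and lay between -0.0073 (without control replicate 2) and 0.21 (without control replicate 3) with single arrays left out.

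Deviations of same-numbered control and ZnO arrays correlated at -0.09, 0.21 and -0.23, and those of the other pairs between -0.40 and 0.33. These values show no pairing by replicate number, but so few arrays cannot exclude one. With the replicate number as a block, 4 probes of the array were called higher and none of the 10 genes was called. A slide block could not be fitted, since all arrays lie on 1 slide. Accepting probes with equal numbers of spots above and below background, and repeating the count of non-overlapping groups in each setting, were chosen after seeing the data.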

Other observations

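The promoter search also found ERSE or ERSE-II in genes outside the 10. In all, 38 gene names had a window with either element, 6 of them among the 10 and 32 others, of which 20 were tested. None of the 20 was called, and 3 had an unadjusted p under 0.05, where 2.86% of all probes were lower and 3.06% higher. Over all probes, 3.59% had all ZnO arrays below all controls and 3.8% had them above. The 20 differences ran from -0.27 to 0.30 with a median of 0.014. The genes at both ends, named after their values were seen, were Zfand2a at 0.30 ± 0.10 (SE; limma adjusted p = 0.728), with all ZnO arrays above all controls, and Pan2 at -0.27 ± 0.07 (SE; limma adjusted p = 0.643), with all ZnO arrays below. Birc5 was at 0.26 ± 0.11 (SE; limma adjusted p = 0.843).

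The wider lists had 26 further tested probes, dimmer than the brightest of their gene. Of these, 5 differed from the brightest by 0.2 or more, 3 upward and 2 downward, a limit set after the values were seen. A dimmer probe of Eif2ak3, which encodes PERK, gave 0.59 ± 0.15 (SE; limma adjusted p = 0.582) where the brightest gave 0.07. That of Edem3 gave 0.63 ± 0.21 (SE; limma adjusted p = 0.757) where the brightest gave 0.28, and that of Tmx3 gave 0.30 ± 0.13 (SE; limma adjusted p = 0.843) where the brightest gave 0.08. Downward, a dimmer probe of Mbtps1, which encodes a protease that activates ATF6, gave -0.21 ± 0.16 (SE; limma adjusted p = 0.946) where the brightest gave 0.07, and that of Derl3 gave -0.19 ± 0.14 (SE; limma adjusted p = 0.945) where the brightest gave 0.05. Without the adjustment, the limma p of these 5 probes was 0.0042 for Eif2ak3, 0.018 for Edem3, 0.049 for Tmx3 and 0.22 for both Mbtps1 and Derl3. Which probe reports the gene better was not tested.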
